A study of Mus musculus with 6 samples.

Results

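The genes described here are 45 listed genes of the G2 phase and mitosis, taken as a module and followed across mouse high-grade glioma cells of 2 drivers. They were picked by name: every probe set whose platform annotation gives exactly 1 gene symbol, and that symbol a listed one, was used. Of the 45 genes 43 were found, with 79 probe sets of the 22690 on each array and among 12393 annotated genes; Ccnb1 and Espl1 were not analysed here. Each gene is represented by its brightest probe set, and Foxm1 is shown for each of its probe sets.

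The arrays fall into 4 samples of EGFRvIII glioma and 2 of PDGF-B glioma, with 1 array per sample, called biological replicates in the labels. EGFRvIII is a truncated, always active EGF receptor, and PDGF-B is the B chain of platelet-derived growth factor. In both groups neural progenitors from E14 embryos were given the driver and a fluorescent reporter by retrovirus, were grafted into the brains of adult BALBc mice, and were taken back from the tumours by sorting for the reporter. The embryos were of the strain BALBc INK4a -/- for all 4 EGFRvIII samples and BALBc for both PDGF-B samples, so the driver and the genotype differed together and cannot be told apart in any value below. The label fields are not uniform: the reporter is DsRed in most and EGFP in the protocol of the sort, and the cells are called cultured in some and sorted in others.

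Mitosis runs on a transcription programme that is switched on in G2. The MuvB complex, first with B-MYB and then with FOXM1, activates promoters that carry a CHR element and often CCAAT boxes, and the products include the B-type cyclins that switch on CDK1, the Aurora, Polo and NEK kinases, the kinetochore and checkpoint proteins, the kinesins, the condensins and the cytokinesis machinery. The transcripts peak in dividing cells and are low in resting ones, so in a bulk RNA sample fewer cells in G2 and mitosis and less RNA per such cell cannot be told apart. In glioma the level of this programme is widely used as a readout of proliferation.

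The sequences shown are RefSeq promoters (GRCm38.p6, 250 bases before to 50 after the annotated start, 5′ to 3′ on the gene's strand) of Nek2, Ccnb2, Plk1 and Mki67. Nek2 and Ccnb2 are among the 4 members with the most negative log2 fold changes, and those of Plk1 and Mki67 were closer to 0. Capitals mark the CHR letters TTTGAA and the box CCAAT, each looked for on both strands. Nek2 lies at chr1:191821223-191821522 (plus strand), Ccnb2 at chr9:70421505-70421804 (minus strand), Plk1 at chr7:122159185-122159484 (plus strand) and Mki67 at chr7:135716330-135716629 (minus strand).
Nek2: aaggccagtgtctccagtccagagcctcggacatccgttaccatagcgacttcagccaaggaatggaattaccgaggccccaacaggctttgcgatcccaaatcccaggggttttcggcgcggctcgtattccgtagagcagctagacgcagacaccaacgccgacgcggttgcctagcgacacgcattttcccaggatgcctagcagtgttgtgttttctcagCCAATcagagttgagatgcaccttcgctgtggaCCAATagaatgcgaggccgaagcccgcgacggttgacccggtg
Ccnb2: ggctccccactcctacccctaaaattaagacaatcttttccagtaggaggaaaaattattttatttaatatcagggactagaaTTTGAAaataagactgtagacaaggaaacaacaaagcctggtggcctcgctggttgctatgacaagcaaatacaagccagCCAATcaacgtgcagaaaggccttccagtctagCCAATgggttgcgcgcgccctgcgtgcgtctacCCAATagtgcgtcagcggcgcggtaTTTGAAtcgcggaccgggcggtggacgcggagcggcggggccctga
Plk1: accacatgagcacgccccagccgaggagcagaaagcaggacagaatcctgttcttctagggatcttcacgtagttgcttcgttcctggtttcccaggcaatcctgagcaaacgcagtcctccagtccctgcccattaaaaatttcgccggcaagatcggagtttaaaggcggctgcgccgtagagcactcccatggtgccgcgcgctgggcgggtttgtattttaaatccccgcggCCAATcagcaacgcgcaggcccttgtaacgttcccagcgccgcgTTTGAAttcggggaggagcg
Mki67: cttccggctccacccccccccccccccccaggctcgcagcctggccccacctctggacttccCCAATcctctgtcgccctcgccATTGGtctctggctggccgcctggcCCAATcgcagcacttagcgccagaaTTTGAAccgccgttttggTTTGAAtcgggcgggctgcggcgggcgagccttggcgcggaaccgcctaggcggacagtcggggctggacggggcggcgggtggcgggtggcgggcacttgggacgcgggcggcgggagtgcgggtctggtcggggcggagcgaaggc
The Nek2 window holds 2 CCAAT boxes and no TTTGAA, while Ccnb2 has 3 and 2 of them, Plk1 1 and 1, and Mki67 3 and 2. Promoters were given for 35 of the measured members, 38 windows in all. TTTGAA was in 28 of these 38 windows (73.7%) and in 17.9% of all 32851 promoters of the table; CCAAT was in 31 (81.6%) and in 37.4% of all. Both stood together in 26 windows (68.4%), against 6.95% of all promoters. The E2F letters TTCCCGC were in 1 member window (2.63%) and in 4.6% of all. The matches describe the letters only, and Bub3, Ect2 and Prc1 have more than 1 window each.

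The sorted cells carried oligodendrocyte progenitor markers at high intensity on average in both groups. Olig2, a transcription factor of that lineage, lay between 11.73 and 12.14 (log2 intensity) in EGFRvIII arrays, against 11.78 and 11.97 in PDGF-B arrays. Other markers differed more: over the 10 tested the log2 fold changes ran from -0.86 to 2.05, with 0 called. Every EGFRvIII array lay above both PDGF-B arrays in 4 of the 10 (22.5% of all genes) and below both in 1 (14.9% of all genes). Cdkn2a, the locus of p16INK4a, was at 3.70 to 3.78 in EGFRvIII arrays, against 6.77 and 6.83 in PDGF-B arrays, in the direction of the labelled genotypes. Xist, the RNA of the inactive X chromosome, was at 3.85 and 4.46 in EGFRvIII replicates 1 and 2 and between 11.71 and 12.38 in the other 4 arrays. Kdm5d, a gene of the Y chromosome, was at 9.40 and 8.97 in EGFRvIII replicates 1 and 2 and between 3.39 and 3.575 in the other 4 arrays. The groups were thus not balanced in these sex-linked genes. Array medians over all probe sets ran from 6.71 to 6.84 in EGFRvIII arrays, against 6.66 in both PDGF-B arrays.

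The comparison asks how the mitotic programme stood in EGFRvIII tumour cells relative to PDGF-B tumour cells. Most members had a slightly lower mean in EGFRvIII cells: 41 of the 43 log2 fold changes (EGFRvIII minus PDGF-B) were negative and their median was -0.26, where 43.5% of the 6753 genes tested were negative and the median over all was 0.06. Of the members, 2 fell past the threshold of the fit over all genes (limma, Benjamini-Hochberg adjusted p under 0.05), which is 4.65% against 0.592% of all genes tested called lower. These were Nek2, a centrosome kinase, and Foxm1, the transcription factor of the programme. No member was called higher, where 1.64% of all genes were. Of all genes tested 2.24% were called in either direction, 111 higher and 40 lower; with each array centred on its median it was 61 higher and 57 lower, and with quantile normalization 77 higher and 44 lower, and the same number of members, 2, was called lower in both. The other 41 members did not pass, with adjusted p from 0.0578 (Ect2) to 0.931 (Ncaph). All 43 members passed the filter on dim genes, which kept 54.5% of all genes, 41 of them above the array median in 6 arrays and Nek2 and Kif4 in 4. All members were read on the same 6 arrays and are not independent of each other.

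At an unadjusted p under 0.05 there were 14 members lower (32.6%) and 0 higher, beside 9.33% and 15.7% of all genes tested. In 22 members (51.2%) every EGFRvIII array lay below both PDGF-B arrays, beside 14.9% of all genes; in 0 members did every EGFRvIII array lie above both, beside 22.5%. The quartiles of the members' log2 fold changes were -0.41 and -0.11, and those of all genes -0.18 and 0.31. A log2 fold change under -0.5 was seen in 7 members (16.3%), beside 6.99% of all genes, and 1 over 0.5 in 0 members, beside 14.5%.

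**Figure D1:**
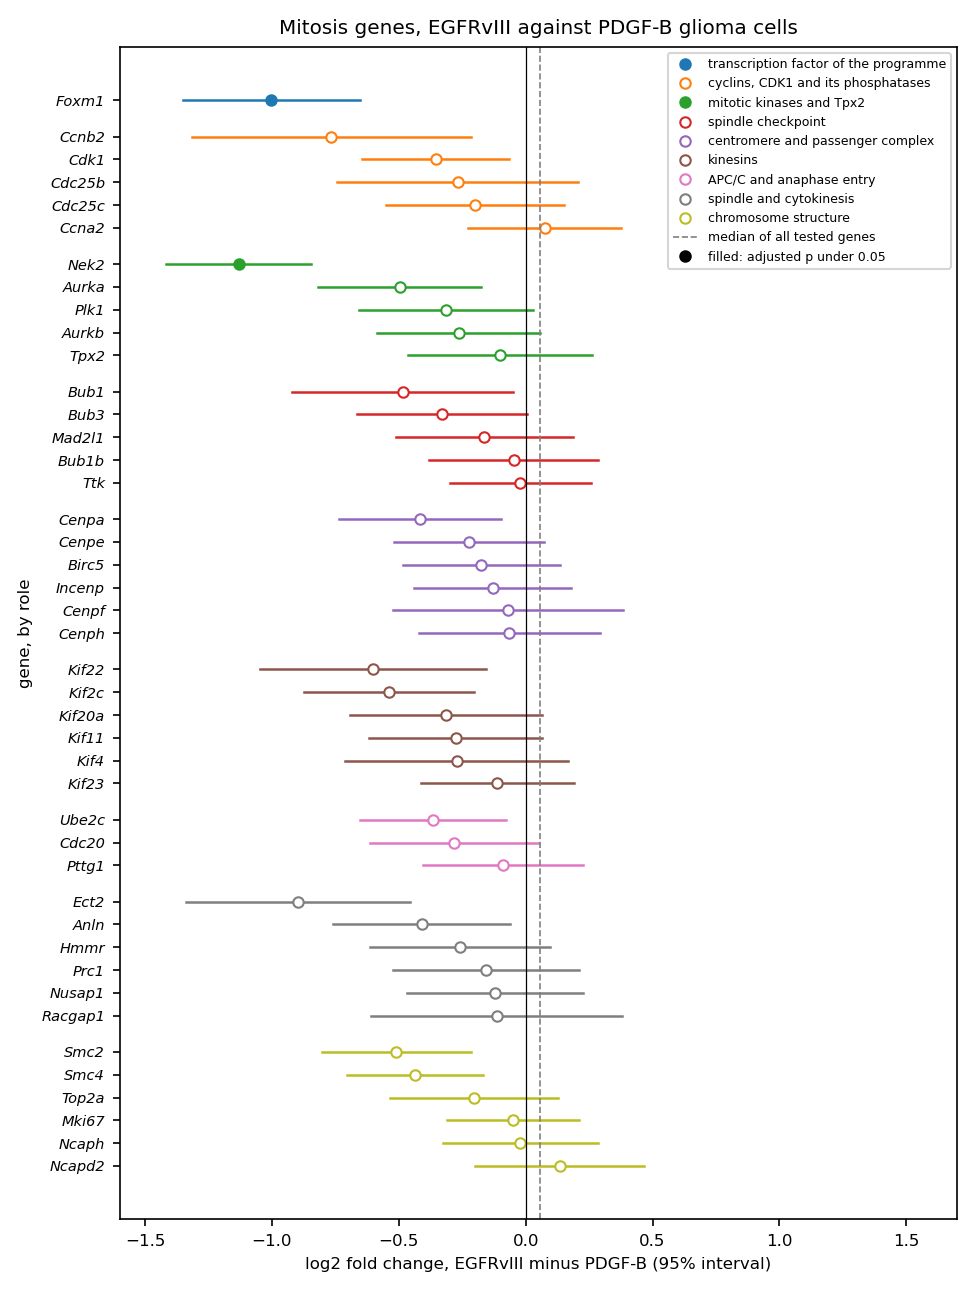
Log2 fold change (x axis, EGFRvIII minus PDGF-B) of the 43 measured mitosis genes (y axis), coloured by role, with 95% intervals from limma; filled points passed the adjusted p under 0.05. Of the 43 points 41 lie below 0, and Foxm1 and Nek2 are the filled ones.

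Nek2 encodes the kinase that splits duplicated centrosomes at the onset of mitosis. Its 1 probe set read 6.72, 6.88, 6.82 and 6.90 (log2 intensity) in EGFRvIII replicates 1 to 4, against 7.91 and 8.02 in PDGF-B replicates 1 and 2. The groups were wide apart and each was tight. Nek2 averaged 6.83 ± 0.08 in EGFRvIII cells (SD, n = 4) and 7.96 ± 0.08 in PDGF-B cells (n = 2), so it fell by 1.13 on the log2 scale (SE 0.12, 2.19-fold; limma adjusted p = 0.0147). The call ended without EGFRvIII replicate 1 (adjusted p = 0.0612), EGFRvIII replicate 4 (0.0505), PDGF-B replicate 1 (0.129) or PDGF-B replicate 2 (0.0914), while the log2 fold change stayed between -1.19 and -1.08. With the comparison limited to EGFRvIII replicates 3 and 4 and both PDGF-B arrays, all of high Xist, Nek2 was at -1.10 (adjusted p = 0.0715), and with Xist as a covariate it was also at -1.10 (0.106).

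Foxm1 encodes the forkhead factor that drives the genes of G2 and mitosis. Its brightest probe set (1448834_at) read 7.70, 7.85, 7.92 and 8.11 in the 4 EGFRvIII arrays, against 8.86 and 8.94 in the PDGF-B arrays. All EGFRvIII values were below both PDGF-B values. This probe set averaged 7.89 ± 0.17 in EGFRvIII cells (SD, n = 4) and 8.90 ± 0.05 in PDGF-B cells (n = 2) and fell by 1.003 on the log2 scale (SE 0.15; limma adjusted p = 0.0356 over genes, 0.033 over probe sets).

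The other Foxm1 probe sets did not pass. Probe set 1417748_x_at read 7.34, 7.37, 7.65 and 7.89 in EGFRvIII arrays, against 7.78 and 8.02 in PDGF-B arrays, a log2 fold change of -0.34 (95% interval -0.79 to 0.12; limma adjusted p = 0.323). Probe set 1448833_at read 7.48, 7.37, 7.47 and 7.83 in EGFRvIII arrays, against 7.82 and 7.86 in PDGF-B arrays, a log2 fold change of -0.30 (95% interval -0.68 to 0.08; limma adjusted p = 0.291). In both of them EGFRvIII replicate 4 overlapped the PDGF-B arrays and the other EGFRvIII arrays lay below. Probe set 1437138_at was at the bottom of the scale, at 3.01 to 3.63 in EGFRvIII arrays, against 2.83 and 3.06 in PDGF-B arrays, and was not tested. A further probe set shares Foxm1 with other genes and was not used. With the mean of the Foxm1 probe sets the log2 fold change was -0.33 (limma adjusted p = 0.256). That mean includes the dim 1437138_at, whose difference was positive. The call of the brightest one also ended without EGFRvIII replicate 1 (adjusted p = 0.0794), EGFRvIII replicate 4 (0.0532), PDGF-B replicate 1 (0.157) or PDGF-B replicate 2 (0.144).

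**Figure D2:**
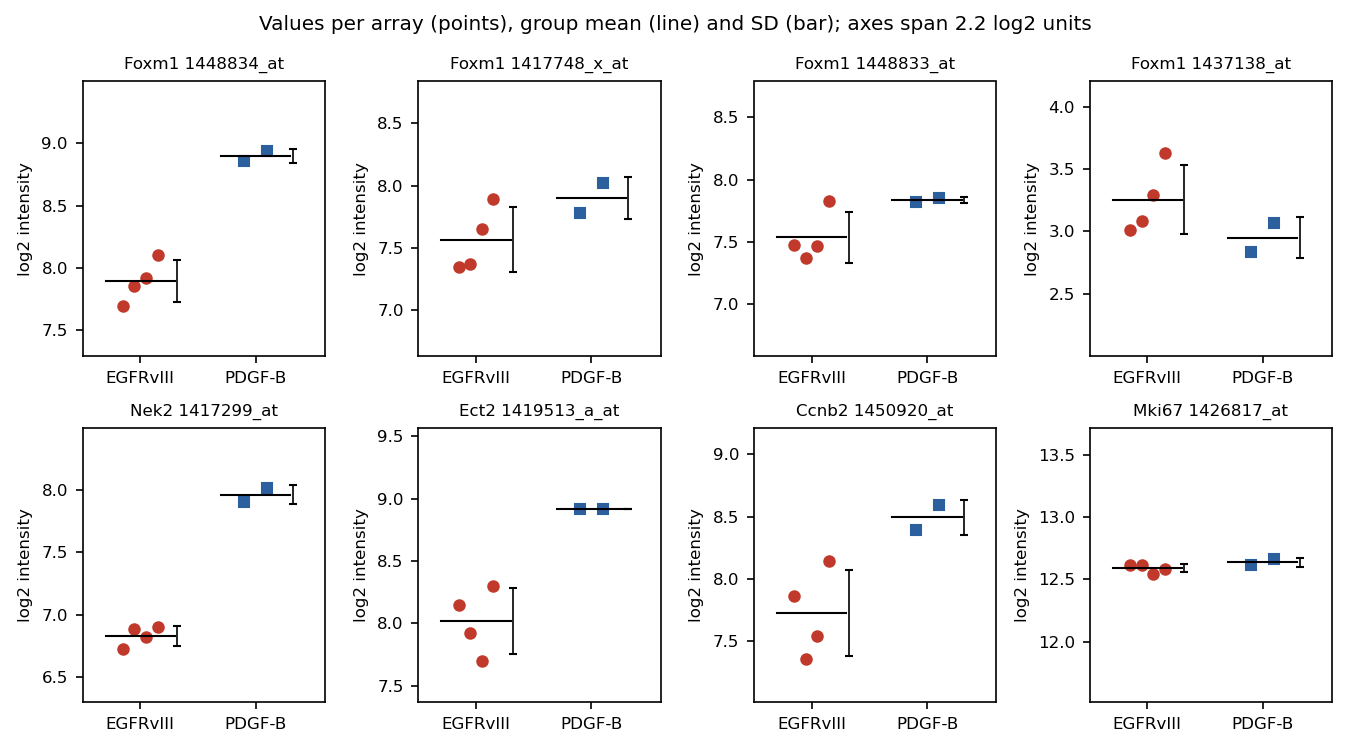
Log2 intensity per array (y axis, each panel spanning the same range of log2 units) of the 4 Foxm1 probe sets (upper row) and of Nek2, Ect2, Ccnb2 and Mki67 (lower row), EGFRvIII arrays left and PDGF-B arrays right, with group mean (line) and SD (bar). The groups are apart for 1448834_at, Nek2, Ect2 and Ccnb2 and overlap for the other Foxm1 probe sets and for Mki67.

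Among the cyclins, CDK1 and its phosphatases, 4 of 5 measured members had a negative log2 fold change and none passed (lowest limma adjusted p = 0.111). Ccnb2, a B-type cyclin that activates CDK1, read 7.86, 7.36, 7.54 and 8.15 in EGFRvIII arrays, against 8.40 and 8.59 in PDGF-B arrays. Its log2 fold change was -0.77 (SE 0.23), and the groups did not overlap although the EGFRvIII arrays spread widely. Cdk1, the kinase that drives entry into mitosis, read 9.82, 9.91, 9.92 and 9.84 in EGFRvIII arrays, against 10.12 and 10.33 in PDGF-B arrays (log2 fold change -0.35, adjusted p = 0.144). Cdc25c, a phosphatase that activates CDK1, had -0.20 (adjusted p = 0.424). Ccna2, the cyclin of S phase and G2, went the other way at 0.07 (95% interval -0.23 to 0.38); its other probe set had -0.27.

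Of the mitotic kinases and the Aurora A activator Tpx2, all 5 had a negative log2 fold change, and Nek2 alone passed. Aurka, the kinase of the spindle poles, read 9.05, 9.005, 8.96 and 9.18 in EGFRvIII arrays, against 9.42 and 9.67 in PDGF-B arrays. The groups did not overlap, with a log2 fold change of -0.50 (SE 0.14, adjusted p = 0.092). Plk1, the Polo kinase, had -0.31 (adjusted p = 0.232) and Aurkb, the kinase of the chromosomal passenger complex, -0.26 (adjusted p = 0.272). Tpx2 lay at 9.13 to 9.40 in EGFRvIII arrays, against 9.19 and 9.54 in PDGF-B arrays, with overlap (log2 fold change -0.10).

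The spindle checkpoint, which holds anaphase until all chromosomes are attached, had 5 measured members, none of which passed. Bub1, a checkpoint kinase at kinetochores, read 7.95, 8.27, 7.74 and 8.21 in EGFRvIII arrays, against 8.62 and 8.44 in PDGF-B arrays (log2 fold change -0.48, adjusted p = 0.167). Bub3, its binding partner, had -0.33 (adjusted p = 0.206), and in both genes the groups did not overlap. The remaining 3 overlapped: Mad2l1 had -0.16, Bub1b -0.05 and Ttk, the MPS1 kinase, -0.02 (95% interval -0.30 to 0.26).

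Centromere and passenger complex members numbered 6, all with a negative log2 fold change and none past the threshold. Cenpa, the histone H3 variant that marks centromeres, read 8.67, 8.73, 8.66 and 8.41 in EGFRvIII arrays, against 9.02 and 9.05 in PDGF-B arrays (log2 fold change -0.42, adjusted p = 0.126). Cenpe, a kinetochore kinesin, had -0.22, also without overlap. Birc5 (survivin), Incenp, Cenpf and Cenph overlapped between the groups, with log2 fold changes of -0.17, -0.13, -0.07 and -0.06.

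The 6 kinesins, the motors of the spindle, ran from -0.60 to -0.11. Kif22, a chromosome-bound kinesin, read 9.92, 9.98, 9.86 and 10.45 in EGFRvIII arrays, against 10.64 and 10.67 in PDGF-B arrays (log2 fold change -0.60, adjusted p = 0.117). Kif2c, which depolymerizes microtubules at kinetochores, read 8.46, 8.54, 8.29 and 8.46 in EGFRvIII arrays, against 9.12 and 8.83 in PDGF-B arrays (log2 fold change -0.54, adjusted p = 0.0841). In both genes all EGFRvIII arrays lay below the PDGF-B arrays, with EGFRvIII replicate 4 nearest to them in Kif22. Kif11, which pushes spindle poles apart, had -0.27, Kif4 -0.27 and Kif23, a motor of the central spindle, -0.11. Kif20a, a kinesin of cytokinesis, had -0.31 (adjusted p = 0.271), with EGFRvIII replicate 2 at 9.69 inside the PDGF-B range of 9.66 to 9.74.

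For the anaphase-promoting complex and anaphase entry 3 members were measured. Ube2c, the ubiquitin-conjugating enzyme of the complex, read 11.82, 11.86, 11.91 and 12.03 in EGFRvIII arrays, against 12.25 and 12.29 in PDGF-B arrays. The values were close together within each group and apart between them (log2 fold change -0.37, adjusted p = 0.131). Cdc20, its activator, had -0.28 at its brightest probe set (adjusted p = 0.266). Its dimmer ones had -0.31 and -0.83 (limma adjusted p = 0.185 and 0.0756 over probe sets). In each Cdc20 probe set the groups did not overlap. Pttg1, securin, had -0.09 at its brightest probe set, while a dimmer one (1419620_at) read 7.63, 7.58, 7.70 and 7.49 in EGFRvIII arrays, against 8.35 and 8.81 in PDGF-B arrays, and passed in the fit over probe sets (log2 fold change -0.98, limma adjusted p = 0.038, beside 0.802% of all probe sets tested called lower). The third Pttg1 probe set had -0.32, and the gene's probe sets thus differed in size.

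Of the 6 spindle and cytokinesis members none passed. Ect2, the exchange factor that activates RhoA at the cleavage furrow, read 8.14, 7.92, 7.70 and 8.30 in EGFRvIII arrays, against 8.91 and 8.92 in PDGF-B arrays. The groups did not overlap. Ect2 came after Nek2 and Foxm1 in size, at -0.90 (SE 0.19, 95% interval -1.34 to -0.46; limma adjusted p = 0.0578). It passed in 2 of 17 alternatives. These were the test of only genes above the median in all 6 arrays (limma adjusted p = 0.0399) and the trended robust variance (0.0486). In the other 15 it did not pass, among them Xist as a covariate (limma adjusted p = 0.1945) and the high-Xist arrays alone (0.1775). Anln, a scaffold of the contractile ring, had -0.41 (adjusted p = 0.152). Hmmr, a spindle protein that also binds hyaluronan, had -0.26 at its brightest probe set, with overlap. The next brightest had -0.28, also with overlap (limma adjusted p = 0.317 over probe sets). A dimmer pair had -1.04 and -0.84 (limma adjusted p = 0.065 and 0.0587 over probe sets). Prc1, Nusap1 and Racgap1 overlapped between the groups, at -0.15, -0.12 and -0.11.

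The 6 chromosome structure genes split. Smc2 and Smc4, the ATPase core shared by both condensins, did not overlap between the groups. Smc2 read 8.97, 8.89, 8.85 and 9.07 in EGFRvIII arrays, against 9.49 and 9.42 in PDGF-B arrays (log2 fold change -0.51, adjusted p = 0.0719). Smc4 read 11.23, 11.18, 11.19 and 11.27 in EGFRvIII arrays, against 11.60 and 11.71 in PDGF-B arrays (log2 fold change -0.44, adjusted p = 0.0816). Their condensin I partners were at 0.13 (Ncapd2, 95% interval -0.20 to 0.47) and -0.02 (Ncaph, 95% interval -0.33 to 0.28), with overlap. Top2a, which untangles sister chromatids, had -0.20 (95% interval -0.53 to 0.13). Mki67, the coat protein of mitotic chromosomes behind the Ki-67 stain, read 12.61, 12.61, 12.55 and 12.58 in EGFRvIII arrays, against 12.61 and 12.66 in PDGF-B arrays. It had the smallest spread of any member among the EGFRvIII arrays (SD 0.03), and its log2 fold change was -0.05 (95% interval -0.31 to 0.21).

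The 2 members of opposite sign, Ccna2 and Ncapd2, were within their spread, and 8 members had a log2 fold change of less than 0.1 in size. Under 17 other settings 32 members kept a negative log2 fold change in each one that tested them. The other 11 changed sign in at least 1 setting or were positive, and all of them had groups that overlapped. Not every setting could turn a negative sign. The other deposited table, the filters and the trended robust variance left each log2 fold change as it was, and centring could only lower it. Averaging probe sets changed only genes with several. Of the scaling alternatives, centring each array on its median gave 42 members below 0 with a median of -0.39, where the median of all genes was -0.07, and quantile normalization gave 41 with a median of -0.30. The members' median lay below that of all genes by 0.32 under the deposited scaling and by 0.29 under quantile normalization. Centring moves the log2 fold changes of all genes by the same amount, so it could not change this gap.

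Across arrays the module was highest in PDGF-B replicate 2. Members' values minus each gene's mean over the 6 arrays had medians of -0.13, -0.07, -0.15 and 0.00 in EGFRvIII replicates 1 to 4, against 0.13 and 0.24 in PDGF-B replicates 1 and 2. The same medians over all genes tested were 0.03, 0.02, 0.04 and -0.02 in the EGFRvIII arrays, against -0.02 and -0.06 in the PDGF-B arrays. PDGF-B replicate 2 held the highest of the 6 values in 28 of 43 members, PDGF-B replicate 1 in 8, and all 4 EGFRvIII arrays together in the remaining 7. The lowest value was in EGFRvIII replicate 3 in 16 members and in EGFRvIII replicate 1 in 13. Within the EGFRvIII group replicate 4 was highest in 19 members. Without PDGF-B replicate 2 the median log2 fold change was -0.20 with 35 of 43 members below 0; without PDGF-B replicate 1 it was -0.30 with 40 of 43 below 0. No member was called in either case (limma; the members with an unadjusted p under 0.05 numbered 6 when PDGF-B replicate 2 was left out and 10 when PDGF-B replicate 1 was).

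**Figure D3:**
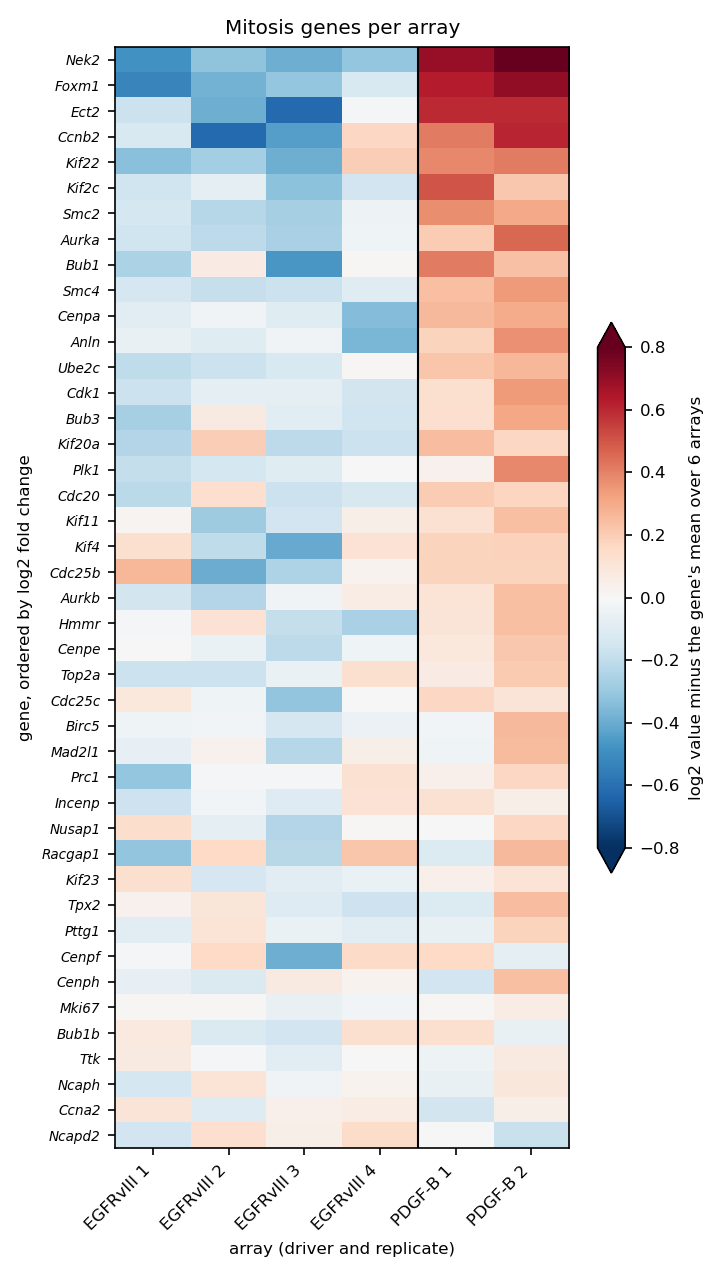
Log2 value minus the gene's mean over the 6 arrays (colour, blue below and red above) for the 43 members (rows, ordered by log2 fold change) in the 4 EGFRvIII arrays (left of the line) and the 2 PDGF-B arrays (right). From Nek2 to Smc2 at the top the PDGF-B arrays are red, and from Mki67 to Ncapd2 at the bottom the colours stay pale in all 6 arrays.

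The members' dimmer probe sets were also read. Over all 36 of them, with no filter on dim values, 30 had a negative log2 difference and the median was -0.26. Of the 21 genes with several probe sets, 14 had only negative differences and 7 had both signs: Bub3, Ccna2, Foxm1, Incenp, Nusap1, Racgap1 and Top2a. The positive one was too dim to be tested in Bub3, Foxm1 and Top2a. All 4 Kif2c and all 3 Kif22 probe sets were lower in every EGFRvIII array than in both PDGF-B arrays, with log2 differences down to -0.54 in Kif2c and -0.60 in Kif22; of the Kif2c probe sets 1 was too dim to be tested and 1 passed the filter through the PDGF-B arrays alone. The second Aurkb probe set had -0.68 (95% interval -1.16 to -0.19; limma adjusted p = 0.109 over probe sets), beside -0.26 at the brightest.

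Other genes of the pathway, listed by name apart from the 45, were compared as lists of their own. Of 66 further mitosis genes tested, 43 were negative (65.2%), the median was -0.14, and 0 passed in limma (11 lower and 3 higher at an unadjusted p under 0.05, which is 16.7% lower beside 9.33% of all genes tested, and 3 of 66 higher beside 15.7%). In 19 of them (28.8%) all EGFRvIII arrays lay below both PDGF-B arrays, beside 14.9% of all genes, and in 10 (15.2%) all lay above, beside 22.5%. Ska2, of the complex that couples kinetochores to microtubules, had -0.68 (limma adjusted p = 0.0635) and Sgo1, the protector of centromeric cohesion, -0.65 (adjusted p = 0.0728), while Mad2l2 of the same list was on the other side at 0.60 (adjusted p = 0.0774). Stil, a centriole duplication factor, had -0.59 (adjusted p = 0.0562) and Kpna2, a nuclear import receptor, -0.50 (adjusted p = 0.0819), while Ckap2, a spindle protein, had 0.60 (adjusted p = 0.0836). Rad21 of cohesin and Ncapg2 of condensin II had -0.65 and -0.71 (adjusted p = 0.114 and 0.134). The 19 genes for subunits of the anaphase-promoting complex and other CDK1 regulators had 11 below 0 and a median of -0.03: Anapc2 had 0.72 and Cdc27 -0.42 (adjusted p = 0.0668 and 0.123).

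Of 13 listed genes of MuvB, its DREAM partners and the MYB factors, 10 were found and 7 tested. The gene of B-MYB was not among the 7. Of the 7 tested, 1 was called lower, beside 0.592% of all genes tested called lower. Lin9, a core subunit of MuvB, read 7.09, 6.95, 7.03 and 7.26 in EGFRvIII arrays, against 8.10 and 7.91 in PDGF-B arrays. All EGFRvIII arrays lay well below. Lin9 averaged 7.08 ± 0.13 in EGFRvIII cells (SD, n = 4) and 8.005 ± 0.13 in PDGF-B cells (n = 2) and fell by 0.92 on the log2 scale (SE 0.14; limma adjusted p = 0.0391). The call ended without EGFRvIII replicate 1 (adjusted p = 0.0968), EGFRvIII replicate 3 (0.0528), EGFRvIII replicate 4 (0.0618), PDGF-B replicate 1 (0.182) or PDGF-B replicate 2 (0.128). It ended too with Xist as a covariate (adjusted p = 0.153) and for the high-Xist arrays alone (0.128). The other 6 had log2 fold changes from -0.17 (Tfdp1) to 0.60 (Mybl1, adjusted p = 0.138), with 3 of them below 0.

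Of the DNA replication genes, which act in S phase, 23 of 35 were negative (65.7%), the median was -0.16, and 0 passed in limma (7 of 35, or 20%, lower at an unadjusted p under 0.05, beside 9.33% of all genes tested, and 1 higher, beside 15.7%). Mcm10, a replication initiation factor, had -0.83 (adjusted p = 0.0535) and Pold2, a subunit of DNA polymerase delta, -0.54 (adjusted p = 0.0883). Of 10 tested G1 cyclins, CDKs, E2F and Rb genes 7 were below 0, with a median of -0.13 and the lowest adjusted p at 0.214 for Rb1, the retinoblastoma protein (log2 fold change 0.58), followed by E2f3 at -0.27 (adjusted p = 0.262). The lists were not tested against each other.

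**Figure D4:**
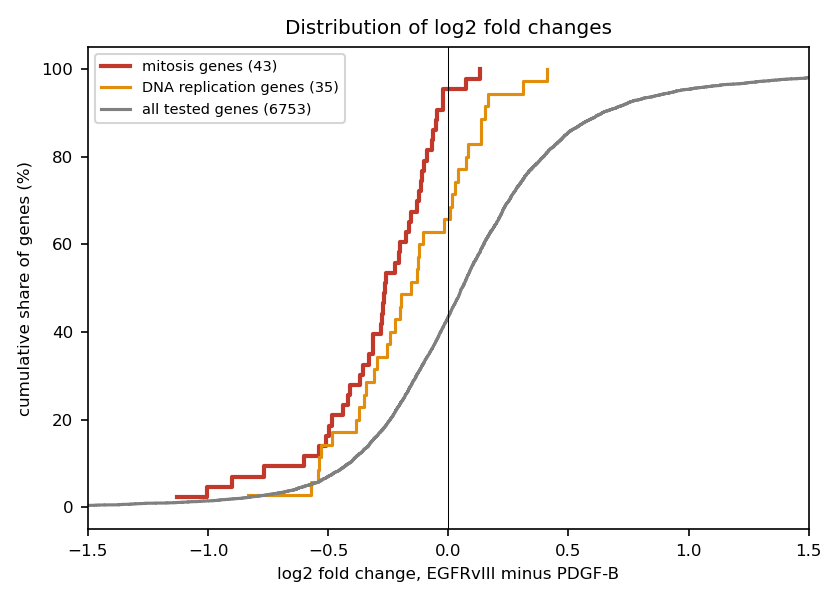
Cumulative share of genes (y axis, %) at or below each log2 fold change (x axis, EGFRvIII minus PDGF-B) for 43 mitosis genes, 35 DNA replication genes and all 6753 genes tested. At 0 the curves stand at 95.3% for mitosis genes, 65.7% for DNA replication genes and 43.5% for all genes; the x axis ends at 1.5 in either direction.

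Markers of other cell types that the sort could let through were dim on average, and some differed with the group. Map2, Snap25, Syp, Prf1 and Hba-a2 were bright enough to be tested. The mean of 9 neuron markers was 5.49 to 5.74 in EGFRvIII arrays, against 6.32 and 5.94 in PDGF-B arrays, with 3 of the 9 tested and 0 called. Those 3 had log2 fold changes from -1.07 to 0.01 (lowest limma adjusted p = 0.359). The mean of 14 microglia and macrophage markers was 4.18 to 4.37 in EGFRvIII arrays, against 4.46 in both PDGF-B arrays, and 0 were bright enough to be tested. Endothelial markers (10 found, 0 tested) averaged 4.21 to 4.40 in EGFRvIII arrays, against 4.22 and 4.42 in PDGF-B arrays. T and NK cell markers (11 found, Prf1 tested) averaged 4.75 to 4.94 in EGFRvIII arrays, against 4.94 and 4.93 in PDGF-B arrays, and red blood cell markers (4 found, Hba-a2 tested) 6.25 to 6.55 in EGFRvIII arrays, against 6.59 and 6.54 in PDGF-B arrays. The 10 oligodendrocyte progenitor markers averaged 11.19 to 11.58 in EGFRvIII arrays, against 10.94 and 11.06 in PDGF-B arrays, with 0 called. The part of these markers in the lower mitosis genes was not tested.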

How the data were processed

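Per the labels' protocols, RNA of sorted glioma cells was turned into cDNA and amplified with an Ovation Pico kit. The values deposited by the authors are log2 intensities, 1 for each probe set of an array, and the notes on processing from the submitters name RMA and affy 3.4.2. That they are base 2 rests on how far they spread (2.22 to 14.4). The intensities of different probe sets are not comparable as levels.

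Of 22690 probe sets 64 are controls, 20380 have 1 gene symbol, 691 several and 1555 none; 20351 of those with 1 symbol were matched to RefSeq by Entrez identifier. Each of 12393 genes was read at its brightest probe set. Genes exceeding the array's median in 2 or more arrays were tested, 6753 in all (54.5%). The 4 EGFRvIII and 2 PDGF-B arrays were compared with limma 3.58.1 (lmFit and eBayes, two-sided, no covariate, 4 residual and 2.81 prior degrees of freedom) in R 4.3.3, with Benjamini-Hochberg adjustment over all genes tested, and a second fit over probe sets. The fit was tested on simulated data. The number of arrays limits the precision.

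The members and lists were chosen with earlier results of these data known. The genes named are, per role, the 3 with the smallest p and the 1 with the highest log2 fold change (the rule asked for a positive one, which most roles lack), every called member, members whose probe sets differ in sign, the 3 brightest and 3 dimmest, and of each other list the called genes or the 2 with the smallest p; others named, Mad2l2 and Ckap2 among them, were chosen after their values were seen. Of the promoters, Nek2 and Mki67 were added after seeing the values, and Ccnb1 was left out as not measured. Likeness to Foxm1 across arrays was planned and is not given, since Foxm1 falls into 2 separate clusters. Alternatives covered the other deposited table (same values to within 5e-09), scaling, filters, probe set means, variance models, array weights, a block on the replicate number, leaving out single arrays, Xist and a threshold of 0.01. Figures were drawn with matplotlib 3.10.9.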

Additional observations from a re-analysis of the deposited data

Results flagged for a closer look

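Of 52 values examined over the 4 EGFRvIII arrays (each member, the role means and the mean of all members), 1 stood out by the gap between an array and its nearest neighbour; by chance about 1 in 20 does. This was Kif20a, a kinesin of cytokinesis, which read 9.685 in EGFRvIII replicate 2, while the remaining EGFRvIII arrays lay between 9.255 and 9.318.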

How the results depend on the processing

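Across 18 alternatives no called value changed its sign. The other deposited table, the filters, the trended robust variance and the threshold of 0.01 left each log2 fold change as it was. Those alternatives could not change a sign. The number of genes called over all genes, 151, was 77 with no filter, 265 with genes above the median in all 6 arrays, 253 with a trended robust variance, 3 with the Xist signal as a covariate, 25 in the 4 arrays with high Xist and 5 at an adjusted p under 0.01; with 1 array left out it ran from 0 (without PDGF-B replicate 1, limma, 1111 genes at an unadjusted p under 0.05) to 186. The number of mitosis genes called lower, 2, was 1 with probe sets averaged per gene, 4 with a trended robust variance (Foxm1, Nek2, Ect2 and Smc4), and 0 with Xist as a covariate (limma, 10 at an unadjusted p under 0.05), in the arrays with high Xist (8 at an unadjusted p under 0.05), at an adjusted p under 0.01 and without EGFRvIII replicate 1, EGFRvIII replicate 4 or either PDGF-B array (6 to 14 at an unadjusted p under 0.05); it was 2 without EGFRvIII replicate 2 or 3. The median log2 fold change of the mitosis genes, -0.26, was -0.39 with each array centred, and -0.30 to -0.20 with 1 array left out. The members below 0 numbered 35 to 42 in all alternatives. The log2 fold change of Foxm1 was -0.33 with the mean of its probe sets (adjusted p = 0.256), -0.88 both when Xist was a covariate (0.139) and for the high-Xist arrays (0.109), -1.07 to -0.94 with 1 array left out, and -1.003 at the stricter threshold, and its call ended in each of these except without EGFRvIII replicate 2 or 3. The causes were not tested. With fewer arrays the fit has fewer degrees of freedom. Of 931 values of single genes other than Foxm1 under these alternatives 15 lost and 6 gained a call. Only Nek2 and Lin9 among these genes were called in the main fit and so had a call to lose. Nek2 lost it in 7 of the 16 alternatives that tested it, and Lin9 in 8 of 17.

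The groups share the replicate numbers 1 and 2, and no label says that a number marks a shared animal, batch or day. Deviations from the group mean of arrays with the same number correlated at 0.20 and 0.25 over genes. The deviations of the 2 PDGF-B arrays are mirror images of each other. The 2 correlations are therefore not separate evidence, and they do not settle a pairing. With the replicate number as a block, 9 genes were called over all genes and 0 mitosis genes (limma, 9 at an unadjusted p under 0.05). The median of the mitosis genes was -0.23. Foxm1 was at -1.12 (limma adjusted p = 0.1), Nek2 at -1.16 (0.0988) and Lin9 at -0.99 (0.109), with 1 residual degree of freedom. The numbers 3 and 4 occur only among the EGFRvIII arrays, which therefore add nothing to this comparison. It sets EGFRvIII replicates 1 and 2, both of low Xist, against the PDGF-B arrays, both of high Xist. In this fit the driver and the sex-linked genes cannot be told apart.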
